A study of Mus musculus with 8 samples.

Results

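Amigo2, Atp8b4, Gramd3 and Naaa are 4 genes that stood lower in CD45RBlow than in CD45RBhigh T cells and that are not among the genes usually listed for naive T cells. They were chosen for that difference from 22180 named genes, and no size of difference was set as a limit. The levels that chose them are therefore given as a description, with no test, whereas genotype and replicate number played no part in the choice and were tested. Each gene was represented by 1 transcript cluster, and all 4 were among the 13508 genes with levels high enough to be tested.

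The cells were splenic CD4+CD25- T cells from C57BL/6 mice aged 6 to 8 weeks, sorted by their surface level of CD45RB, a form of the phosphatase CD45 that is high on naive cells and lower on cells that have met antigen. The mice were wild type (wt) or CCR2-/-, which lack the receptor for the chemokine CCL2. The allele, and whether the lines were littermates, is not given in the sources used here. All cells of the 4 groups (wt CD45RBhigh, wt CD45RBlow, CCR2-/- CD45RBhigh and CCR2-/- CD45RBlow) had been stimulated on plates coated with antibodies to CD3 and CD28, so the groups compare stimulated cells. Stimulation lasted 48 h according to the sample protocols but 2 h according to the series design. Each group had 2 arrays. No label ties replicates to separate mice or cultures, and the p-values reflect only how these 8 samples vary.

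The 4 genes encode membrane-associated or lysosomal proteins of different families. Amigo2 is a cell surface adhesion protein with leucine-rich repeats and an immunoglobulin domain, studied mostly in neurons. Atp8b4 belongs to the P4-ATPases, which move phospholipids from the outer to the inner leaflet of membranes, most of them together with a CDC50 subunit. Gramd3 carries a GRAM domain, a lipid-binding module shared with proteins that act where the endoplasmic reticulum meets the plasma membrane. Naaa is a lysosomal amidase that breaks down N-acylethanolamines such as palmitoylethanolamide, a lipid that activates the nuclear receptor PPAR-alpha, and it is best known from macrophages.

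The promoter windows are shown because the 4 genes were low on the same arrays. RefSeq (GRCm38.p6) gave the 250 bases before the start site for 3 of the 4 genes, all on the minus strand. The window of Amigo2 is chr15:97247288-97247537, that of Atp8b4 is chr2:126491554-126491803 and that of Naaa is chr5:92278182-92278431. They are printed 5′ to 3′ on the gene's strand, ending at the base before the start site, and capitals mark motif matches.
Amigo2: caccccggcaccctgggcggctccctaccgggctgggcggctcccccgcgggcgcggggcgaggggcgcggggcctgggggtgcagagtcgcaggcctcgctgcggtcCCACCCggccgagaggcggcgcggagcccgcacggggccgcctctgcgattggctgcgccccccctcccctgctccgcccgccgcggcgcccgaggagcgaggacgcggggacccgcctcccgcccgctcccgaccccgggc
Atp8b4: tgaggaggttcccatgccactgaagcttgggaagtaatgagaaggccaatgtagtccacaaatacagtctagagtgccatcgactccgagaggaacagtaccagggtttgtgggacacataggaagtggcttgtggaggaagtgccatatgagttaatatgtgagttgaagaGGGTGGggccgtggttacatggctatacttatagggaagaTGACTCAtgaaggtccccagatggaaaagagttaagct
Naaa: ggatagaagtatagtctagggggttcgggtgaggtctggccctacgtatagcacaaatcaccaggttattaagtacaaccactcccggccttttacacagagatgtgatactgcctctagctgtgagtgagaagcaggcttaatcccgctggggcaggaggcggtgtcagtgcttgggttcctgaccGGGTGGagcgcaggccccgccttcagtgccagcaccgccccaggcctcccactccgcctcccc

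Motifs of 7 kinds of factor active in T cells were searched on both strands: FOXO (TGTTTAC), TCF1/LEF1 (CTTTGA), KLF (CCACCC), RUNX (TGTGGT), AP-1 (TGANTCA), CRE (TGACGTCA) and ISRE, the interferon-stimulated response element. The KLF letters occurred in all 3 windows, from -142 to -137 in Amigo2 on the gene's strand, from -78 to -73 in Atp8b4 and from -63 to -58 in Naaa on the opposite strand. They occur in 28.1% of the 32851 mouse promoter windows of this length. The AP-1 letters occurred in Atp8b4 from -38 to -32, against 6.75% of all windows. The other 5 motifs, which occur in 1.55% (CRE), 2.98% (ISRE), 3.17% (FOXO), 13.8% (TCF1/LEF1) and 14.0% (RUNX) of all windows, had no match in these 3. No 2 of the matches overlapped. The base composition of the 3 windows differed widely. The window of Amigo2 was 84.0% G and C with 38 CpG sites, and 99.7% of all windows had a lower G and C content. That of Atp8b4 was 48.0% G and C with 3 CpG sites, below the median window at 52.4% and 6 sites. That of Naaa was 59.2% G and C with 10 CpG sites.

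As a check of the labels, Cd4 stood between 11.54 and 11.74 and Ptprc, the gene of CD45, between 12.17 and 12.47 on the log2 scale on all 8 arrays, where array medians ran from 4.92 to 5.05. The 8 CD4 T cell markers averaged 11.16 to 11.35. Ccr2 was near background everywhere, from 4.26 to 5.15, and does not check the genotype. Group means of Ptprc ran from 12.26 to 12.39, and this level of the whole gene does not check the CD45RB subset. Xist stood at 4.45 to 5.02 on all replicate 1 arrays and at 11.74 to 12.07 on all replicate 2 arrays, and the Y-linked Kdm5d (-1.28), Uty (-1.04) and Eif2s3y (-1.21) were lower on replicate 2 (limma, adjusted p from 0.0121 to 0.0255). The replicate numbers thus differ in sex-linked genes and are not repeats of 1 RNA sample. An effect of replicate number cannot be told apart from one of sex. Of the other cell types, the B cell list (8 of 11 markers detected, with Pax5, Blk and Cr2 below the filter) averaged 5.13 to 5.94 in CD45RBhigh and 4.98 to 5.07 in CD45RBlow samples, and its difference within replicate number was -0.65 (wt) and -0.96 (CCR2-/-) for number 1 but -0.06 and -0.17 for number 2. Of the 8, Ighm fell by 1.03 (limma, adjusted p = 0.0128), a call lost without wt or CCR2-/- CD45RBlow replicate 1 (up to 0.077). With the mean of all clusters of a gene in place of the brightest, Ighm differed by -0.30 (adjusted p = 0.307). The dendritic cell list (5 of 12 detected, with Flt3, Itgax and Xcr1 among those below the filter) averaged 5.42 to 5.63 in CD45RBhigh and 5.29 to 5.32 in CD45RBlow samples. The macrophage list (4 of 10 detected, with Csf1r, Adgre1 and Lyz2 below the filter) averaged 5.38 to 5.76 and 5.24 to 5.34. Its Ctss, which other antigen-presenting cells also express, fell by 1.23 (limma, adjusted p = 0.00963), a call lost without wt CD45RBlow replicate 1 (0.063). Blocking on the replicate number gave 2 genes that fell in each of the B cell and macrophage lists. With the block, 494 of the 13508 genes tested were called lower. Beside Ighm and Ctss these were Fcer2a at -1.61 (limma, adjusted p = 0.0446 with the block and 0.137 without) and Cd68 at -0.53 (0.0244 and 0.292). Of the CD8 markers, Cd8b1 also fell with the block, at -0.92 (limma, adjusted p = 0.0466 with the block and 0.0776 without). Both CD8 markers averaged 6.16 to 6.84 against 5.80 to 5.93, and the NK list (4 of 6 detected) 4.49 to 4.76 against 4.41 to 4.50. The neutrophil and mast cell list (3 of 9 detected) averaged 4.30 to 4.48 against 4.32 to 4.44. All list averages include the markers below the filter, which may narrow the differences. The detected markers alone had median differences of -0.64 (B cell), -0.34 (dendritic cell), -0.53 (macrophage), -0.55 (CD8), -0.35 (NK) and 0.18 (neutrophil and mast cell). The 10 regulatory T cell genes averaged 7.18 to 7.52 in CD45RBhigh and 7.97 to 8.62 in CD45RBlow samples. Of these, 4 rose (limma, adjusted p from 0.00627 to 0.0488), where 1.1% of all genes tested were called higher.

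Amigo2 showed the widest difference of the 4 genes. Its log2 level was 7.61 and 7.78 in wt CD45RBhigh, 7.43 and 8.16 in CCR2-/- CD45RBhigh, 5.06 and 5.41 in wt CD45RBlow, and 4.97 and 5.72 in CCR2-/- CD45RBlow samples (replicates 1 and 2). All 4 CD45RBhigh arrays were above all 4 CD45RBlow arrays, with a gap of 1.71 between the ranges. The mean was 7.75 ± 0.31 (SD, n = 4) in CD45RBhigh and 5.29 ± 0.34 in CD45RBlow samples, a ratio of 5.48. The order of the groups was CCR2-/- CD45RBhigh (7.80 ± 0.52, SD, n = 2), wt CD45RBhigh (7.70 ± 0.12), CCR2-/- CD45RBlow (5.35 ± 0.53) and wt CD45RBlow (5.24 ± 0.24), and within each subset the genotypes overlapped. The CD45RBlow arrays were 0.44 to 1.09 above the 40th percentile of their array, the limit used for testing. Both replicate 1 arrays, at 0.50 and 0.44, lay within the 0.62 that dim Ccr2 reached, so the ratio is against a level close to background.

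Atp8b4 had a dim signal in CD45RBlow samples. Its log2 level was 5.77 and 6.48 in wt CD45RBhigh, 6.74 and 6.60 in CCR2-/- CD45RBhigh, 4.14 and 4.76 in wt CD45RBlow, and 4.71 and 4.70 in CCR2-/- CD45RBlow samples. The subsets did not overlap, with a gap of 1.01, and the wt replicate 1 array was the lowest of its subset on both sides. The mean was 6.40 ± 0.43 (SD, n = 4) against 4.58 ± 0.29, a measured ratio of 3.53. The CD45RBlow arrays lay from 0.42 below (-0.42) to 0.22 above their array's 40th percentile, and 1 of the 4, wt replicate 1, was under it. The level in CD45RBlow samples is thus at background. With these arrays raised to at least that percentile, a step added after the values were seen, the ratio of the means was 3.28. That value is a point estimate without an interval, and no lower limit for the ratio. The order of the groups was CCR2-/- CD45RBhigh (6.67 ± 0.10, SD, n = 2), wt CD45RBhigh (6.13 ± 0.51), CCR2-/- CD45RBlow (4.71 ± 0.01) and wt CD45RBlow (4.45 ± 0.44). In CD45RBlow samples the genotypes overlapped. In CD45RBhigh samples their nearest arrays were 6.48 (wt) and 6.60 (CCR2-/-), closer to each other than the wt arrays were.

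Gramd3 had a clear signal in all 4 groups. Its log2 level was 9.14 and 9.21 in wt CD45RBhigh, 8.88 and 9.06 in CCR2-/- CD45RBhigh, 7.99 and 8.15 in wt CD45RBlow, and 7.98 and 7.95 in CCR2-/- CD45RBlow samples. The subsets were 0.73 apart at the nearest arrays, and all 8 arrays were far above background. The mean was 9.07 ± 0.14 (SD, n = 4) against 8.02 ± 0.09, a 2.08-fold lower level in CD45RBlow samples. The order of the groups was wt CD45RBhigh (9.18 ± 0.05, SD, n = 2), CCR2-/- CD45RBhigh (8.97 ± 0.13), wt CD45RBlow (8.07 ± 0.11) and CCR2-/- CD45RBlow (7.97 ± 0.03). It was the 1 gene of the 4 with the higher mean in wt samples in both subsets. The nearest CD45RBlow arrays of the genotypes were 7.98 and 7.99.

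Naaa had the narrowest difference. Its log2 level was 7.43 and 7.40 in wt CD45RBhigh, 7.64 and 7.76 in CCR2-/- CD45RBhigh, 6.44 and 6.94 in wt CD45RBlow, and 6.88 and 7.04 in CCR2-/- CD45RBlow samples. The subsets were 0.37 apart at the nearest arrays. The mean was 7.56 ± 0.17 (SD, n = 4) against 6.82 ± 0.26, a 1.66-fold lower level in CD45RBlow samples. The order of the groups was CCR2-/- CD45RBhigh (7.70 ± 0.09, SD, n = 2), wt CD45RBhigh (7.42 ± 0.02), CCR2-/- CD45RBlow (6.96 ± 0.11) and wt CD45RBlow (6.69 ± 0.35). In CD45RBhigh samples the nearest arrays of the genotypes were 7.43 (wt) and 7.64 (CCR2-/-). In CD45RBlow samples, where wt replicate 1 stood lowest, the genotypes overlapped.

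**Figure D1:**
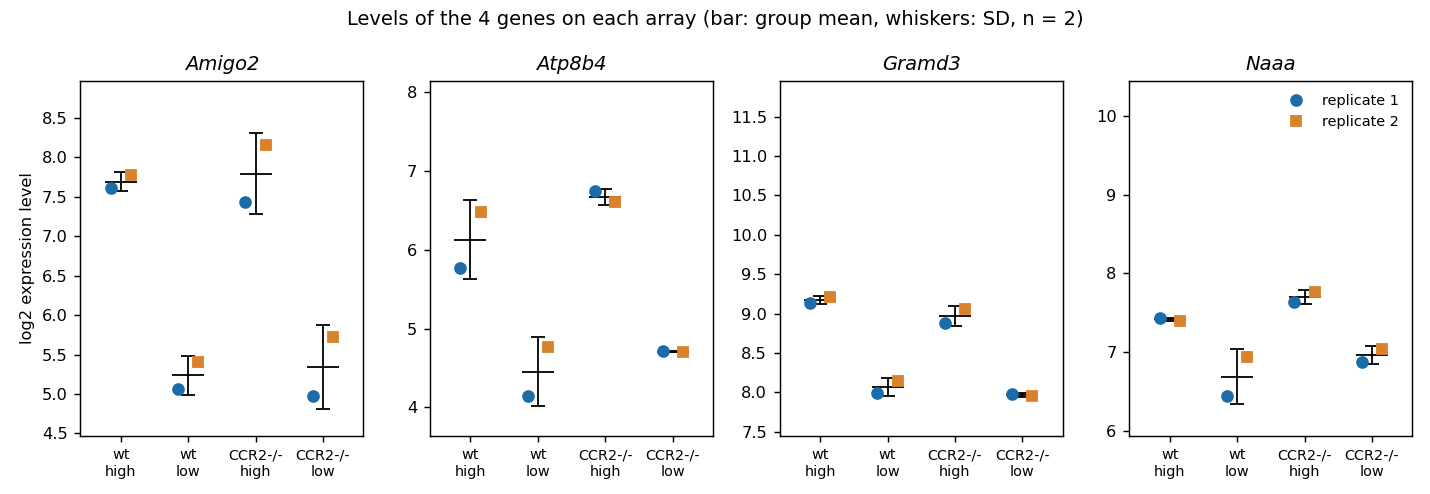
Log2 expression level (vertical axis, the same span in each panel) of Amigo2, Atp8b4, Gramd3 and Naaa on the 8 arrays, by genotype and CD45RB subset. Points are arrays, marked by replicate number, horizontal lines are group means and whiskers are the SD (n = 2). Every CD45RBlow point lies below every CD45RBhigh point of its gene, with gaps of 1.71, 1.01, 0.73 and 0.37.

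The choice of the 4 genes fixed the direction of this difference. Among all genes tested, 8.13% (1098) had every CD45RBlow array below every CD45RBhigh array, 1.93% (261) were called lower in CD45RBlow at a limma adjusted p under 0.05 and 1.1% (148) were called higher. With the replicate number as a block, 494 were called lower and 264 higher. Counted from the gene with the lowest CD45RBlow relative to CD45RBhigh level, Amigo2 had rank 8, Atp8b4 rank 29, Gramd3 rank 109 and Naaa rank 232 of the 13508. The ranks of Amigo2 and Atp8b4 rest on CD45RBlow levels near or at background. In sorted but mixed samples, fewer cells that express a gene and less RNA per cell cannot be told apart.

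The differences between subsets were alike across genotypes and replicate numbers for Amigo2 and more variable for Naaa. In pairs of arrays with the same genotype and number, CD45RBlow minus CD45RBhigh was -2.54 and -2.37 for Amigo2 in wt and -2.46 and -2.44 in CCR2-/- samples (SD over the 4 pairs 0.07). For Atp8b4 the pairs gave -1.63 and -1.72 in wt and -2.03 and -1.89 in CCR2-/- samples (SD 0.18). The 4 differences of Gramd3 were -1.16, -1.06, -0.89 and -1.11 (SD 0.12). Those of Naaa were -0.99, -0.46, -0.75 and -0.73 (SD 0.21), with wt replicate 2 the smallest and wt replicate 1 the largest. Within replicate number 2, where the B cell list differed by -0.06 in wt and -0.17 in CCR2-/- samples, Amigo2 differed by -2.37 and -2.44, Atp8b4 by -1.72 and -1.89, Gramd3 by -1.06 and -1.11, and Naaa by -0.46 and -0.73. At number 2 the dendritic cell, macrophage, CD8 and NK cell lists differed by -0.10 to -0.34. The regulatory T cell genes differed more there and were higher in CD45RBlow, by 0.95 in wt and 0.79 in CCR2-/- samples. The list values are averages that include markers below the filter. The part of any of these lists, the B cell list included, in the differences of the 4 genes was not tested.

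**Figure D2:**
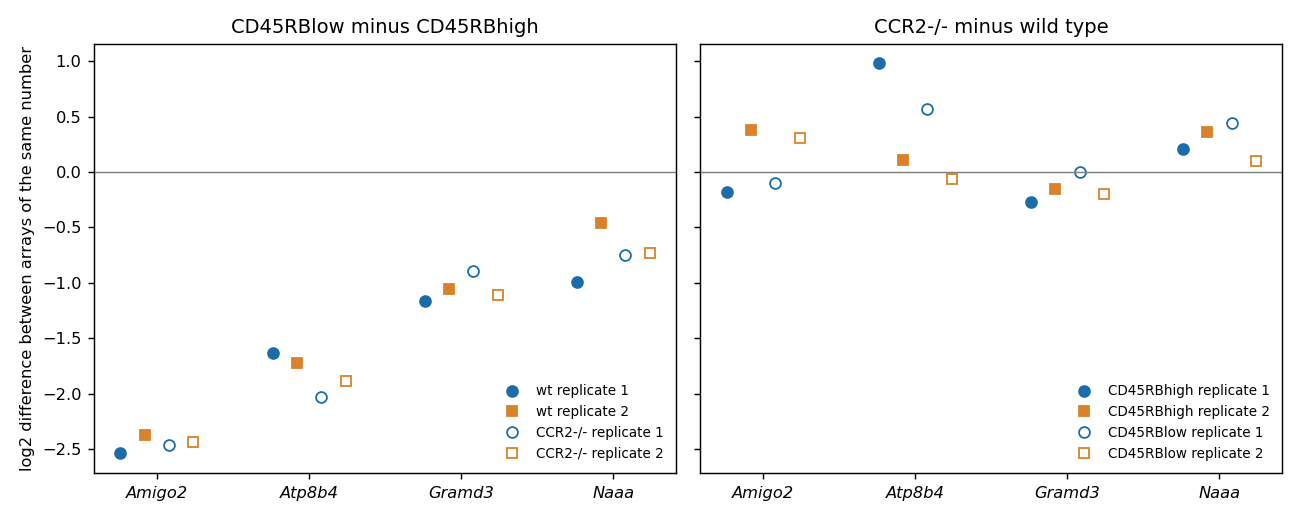
Differences in log2 level (vertical axis) of the 4 genes between arrays of the same replicate number, CD45RBlow minus CD45RBhigh on the left and CCR2-/- minus wt on the right. Each point is 1 pair of arrays, and the line marks no difference. On the left the 16 points lie between -2.54 and -0.46, and on the right they lie between -0.27 and 0.98, on both sides of the line.

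The genotype comparison asks whether loss of CCR2 shifts these genes in either subset, and none of the 4 passed the test. In CD45RBhigh cells, CCR2-/- minus wt was 0.10 for Amigo2 (95% interval -0.62 to 0.82), 0.54 for Atp8b4 (-0.08 to 1.17), -0.21 for Gramd3 (-0.48 to 0.06) and 0.28 for Naaa (-0.12 to 0.68), each with a limma adjusted p of 1. In CD45RBlow cells the differences were 0.11 (-0.61 to 0.83), 0.26 (-0.37 to 0.88), -0.10 (-0.38 to 0.17) and 0.27 (-0.13 to 0.67) in the same order, again with adjusted p-values of 1. Of all genes tested, 0% were called in either comparison, with 354 genes at an unadjusted p under 0.05 in CD45RBhigh and 298 in CD45RBlow cells. With the replicate number as a block the interval of Atp8b4 in CD45RBhigh cells was 0.01 to 1.08 before adjustment over all genes, and its adjusted p was 0.947.

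Averaged over subsets, Naaa stood 0.28 higher in CCR2-/- cells (95% interval -0.01 to 0.56, unadjusted p = 0.0536, limma adjusted p = 0.94). Its pairs of arrays differed by 0.21 and 0.36 in CD45RBhigh and 0.44 and 0.10 in CD45RBlow cells. Atp8b4 stood 0.40 higher (-0.04 to 0.84, unadjusted p = 0.0703, adjusted p = 0.94). Its pairs split by replicate number, with 0.98 and 0.57 for number 1 and 0.11 and -0.06 for number 2, since both wt replicate 1 arrays were low. Gramd3 stood at -0.16 (-0.35 to 0.04, adjusted p = 0.94). Amigo2 stood at 0.10 (-0.41 to 0.61, adjusted p = 0.977), negative in both pairs of number 1 (-0.18 and -0.10) and positive in both of number 2 (0.38 and 0.31). Again 0% of the genes tested were called, with 521 at an unadjusted p under 0.05. In the blocked model the unadjusted p was 0.0289 for Naaa and 0.0414 for Atp8b4, each with an adjusted p of 0.693.

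The interaction asks whether the difference between subsets itself depends on CCR2. It was 0.01 for Amigo2 (95% interval -1.01 to 1.03), -0.29 for Atp8b4 (-1.17 to 0.60), 0.11 for Gramd3 (-0.28 to 0.50) and -0.01 for Naaa (-0.58 to 0.55), with limma adjusted p-values of 1. For Amigo2 the subset difference was -2.46 in wt and -2.45 in CCR2-/- cells. For Atp8b4 it was -1.68 and -1.96, and for Naaa -0.73 and -0.74. For Gramd3 it was -1.11 in wt cells and smaller in size by 0.11 in CCR2-/- cells. The call rate over all genes was 0%, with 160 at an unadjusted p under 0.05.

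For Amigo2 the estimate for replicate number was larger than those for genotype, and it did not pass the test over all genes. Replicate 2 was above replicate 1 in all 4 groups for Amigo2, by 0.17 and 0.35 in wt and 0.73 and 0.76 in CCR2-/- samples (CD45RBhigh, then CD45RBlow). The averaged difference was 0.50 (95% interval 0.22 to 0.78, unadjusted p = 0.00388, limma adjusted p = 0.197). Among all genes, 16.8% were higher on replicate 2 in all 4 groups and 0.0666% (9 genes) were called, Xist among them. For Atp8b4 the differences were 0.72 and 0.62 in wt but -0.15 and -0.01 in CCR2-/- samples, with an average of 0.30 (-0.08 to 0.67, adjusted p = 0.391). Gramd3 averaged 0.09 (-0.09 to 0.27, adjusted p = 0.55). Naaa averaged 0.19 (-0.05 to 0.43, adjusted p = 0.383), of which wt CD45RBlow, at 0.50, held the largest difference.

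**Figure D3:**
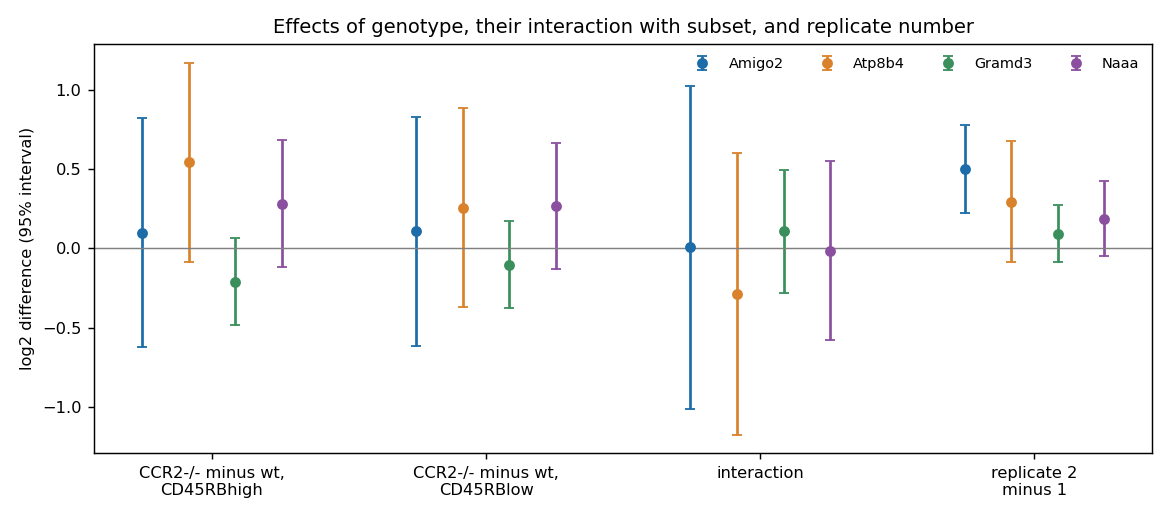
Estimated log2 differences (vertical axis) of the 4 genes with 95% intervals for genotype in each subset, for the interaction, and for replicate 2 minus 1, fitted over 8 arrays. Genotype and interaction come from the model without the replicate number, where their 12 intervals include 0. The replicate intervals come from the model with it, and that of Amigo2 runs from 0.22 to 0.78 before adjustment over all genes.

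Few relatives of the 4 genes passed the test between subsets, for which the background over all genes tested is 1.93% called lower and 1.1% called higher. In lists of this size, 0 or 1 gene called cannot be told apart from that share. In the Amigo2 family (AMIGO and other adhesion genes with leucine-rich repeats and immunoglobulin domains, 26 on the array and 11 tested without Amigo2), 0 genes passed, and the median CD45RBlow minus CD45RBhigh difference was 0.01 against -0.01 over all genes tested. At an unadjusted p under 0.05 there was 1, Lrig2, a regulator of growth factor receptors, at -0.35 (95% interval -0.57 to -0.13, limma adjusted p = 0.102). Amigo1 and Amigo3, the nearest relatives, were picked out after their values were seen. They were dim, from 5.07 to 5.55 and from 4.69 to 5.09, and differed by 0.15 (adjusted p = 0.502) and 0.00 (adjusted p = 0.991).

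Among P4-ATPases and CDC50 subunits (16 on the array, 10 tested without Atp8b4), 1 fell and 0 rose, and the median difference was 0.02. The gene was Atp10d, which belongs to the P4-ATPase family. Only its RNA was measured, with no protein or transport activity. Its log2 level was 7.84 and 8.20 in wt CD45RBhigh, 8.25 and 8.31 in CCR2-/- CD45RBhigh, 7.09 and 7.39 in wt CD45RBlow, and 7.37 and 7.40 in CCR2-/- CD45RBlow samples. No array of one subset reached the other. Atp10d fell by 0.84 (-1.10 to -0.58, limma adjusted p = 0.0149), and it lost the call without wt CD45RBlow replicate 1 or without CCR2-/- CD45RBlow replicate 1 (adjusted p up to 0.079). Tmem30a, the CDC50 subunit that most P4-ATPases need, was bright at 10.82 to 11.25 and differed by -0.09 (-0.36 to 0.18); it too was picked out after its values were seen. The scramblases, which move phospholipids without direction (16 on the array, 8 tested), had 0 genes past the threshold and a median of -0.03. The smallest p was that of Plscr3, a mitochondrial member, at -0.32 (adjusted p = 0.156).

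Among GRAM domain and membrane contact site genes (24 on the array, 20 tested without Gramd3), 1 fell and 0 rose, with a median of -0.08. Gramd1a, which carries cholesterol from the plasma membrane to the endoplasmic reticulum, was at 10.59 and 10.55 in wt CD45RBhigh, 10.83 and 10.87 in CCR2-/- CD45RBhigh, 10.09 and 10.21 in wt CD45RBlow, and 10.03 and 10.41 in CCR2-/- CD45RBlow samples. The subsets did not overlap, with CCR2-/- CD45RBlow replicate 2 nearest to the other subset. Gramd1a fell by 0.52 (-0.76 to -0.29, limma adjusted p = 0.0413). It passed in 1 of the 8 fits that left out 1 array, that without CCR2-/- CD45RBlow replicate 2, and in the other 7 the adjusted p reached 0.205. In all, 5 of the 20 had an unadjusted p under 0.05, against 2446 of all 13508 genes tested.

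Of the enzymes that make or break down N-acylethanolamines and related lipids (17 on the array, 12 tested without Naaa), 0 passed, and the median was 0.05. Asah2, a neutral ceramidase, had the smallest p, with levels from 4.75 to 5.50 and a difference of -0.43 (-0.65 to -0.21, limma adjusted p = 0.0619). Asah1, the acid ceramidase that resembles Naaa most, and Faah, the other main hydrolase of these lipids, were picked out after their values were seen. They differed by -0.19 (adjusted p = 0.537) and -0.17 (adjusted p = 0.469). Of their receptors (9 on the array, 5 tested), 1 rose and 0 fell. Gpr55, a receptor for lysophosphatidylinositol also reported to respond to these lipids, was dim, at 4.09 to 4.29 in CD45RBhigh and 4.61 to 4.83 in CD45RBlow samples. All its CD45RBhigh levels lay under the 40th percentile of their arrays (4.54 to 4.62). Gpr55 entered the test through its CD45RBlow arrays alone. Its difference, against a level at background, was 0.54 (0.32 to 0.75, limma adjusted p = 0.0313). It kept the call without CCR2-/- CD45RBhigh replicate 1 or replicate 2 and lost it without any 1 of the other 6 arrays (adjusted p up to 0.12). With the replicate number as a block, 2 receptors rose, where 264 of the 13508 genes tested were called higher with it. The other receptor was Pparg, at 0.79 with a limma adjusted p of 0.00938 against 0.331 without the block. Pparg, the fat-cell nuclear receptor, was also higher on replicate 2, by 0.99 (adjusted p = 0.0443), a call lost whichever array was left out (adjusted p from 0.0927 to 0.267). No gene of these 6 lists was called in a genotype or interaction comparison.

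**Figure D4:**
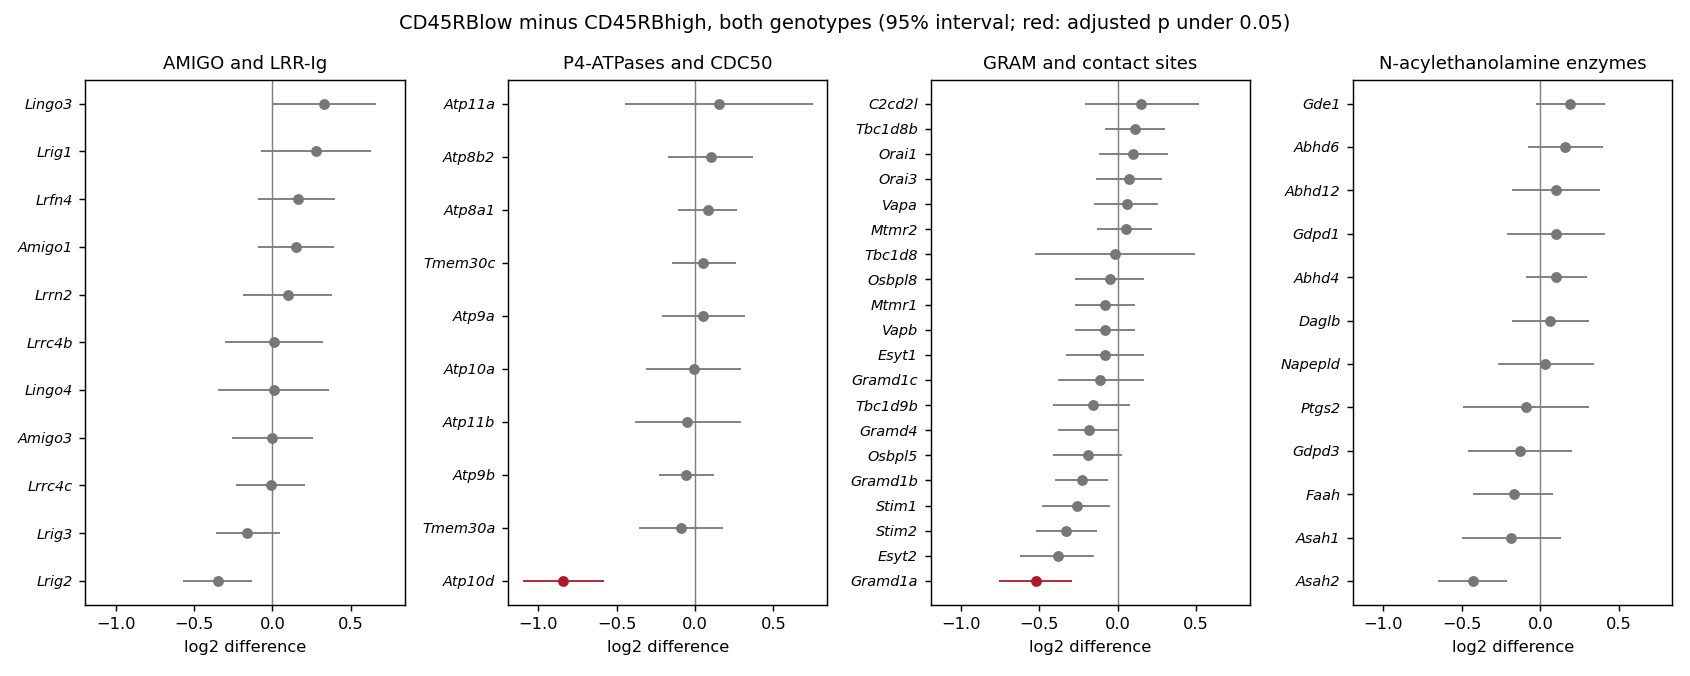
CD45RBlow minus CD45RBhigh difference in log2 level (horizontal axis), averaged over genotypes, for the tested relatives of Amigo2 (11 genes), Atp8b4 (10), Gramd3 (20) and Naaa (12), without the 4 genes themselves. Points are limma estimates over 8 arrays and bars their 95% intervals; Atp10d at -0.84 and Gramd1a at -0.52, in red, are the 2 with an adjusted p under 0.05.

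The 4 genes followed each other closely over the 8 arrays, which the choice by subset largely fixes. Pearson's r ran from 0.847 (Gramd3 with Naaa) to 0.966 (Amigo2 with Gramd3). Beyond the subset difference they parted, with Amigo2 higher on replicate 2 throughout, Atp8b4 low on both wt replicate 1 arrays, and Gramd3 with higher means in wt than in CCR2-/- samples. None of the 4 genes passed a test for genotype or replicate number.

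The genes with the profile most like each were found by r over the same 8 arrays, which share 4 groups, so that a high r mostly repeats the subset difference. For Amigo2 they included Vldlr (r = 0.986), a lipoprotein receptor, and Serpinb6b (0.983), a protease inhibitor, with differences of -1.24 and -1.10 between subsets. For Atp8b4 they were Atp10d (r = 0.997), Chd2 (0.993) and Pdlim5 (0.991), with differences of -0.84, -0.35 and -0.87. Atp10d, the other P4-ATPase described above, was thus the gene closest to Atp8b4 of all genes tested, and it too was lowest within each subset on the wt replicate 1 array. Chd2 is a chromatin remodeller and Pdlim5 a cytoskeletal adaptor. For Gramd3 they were Il12rb1 (r = 0.983), a subunit of the IL-12 receptor, Dock10 (0.983), a guanine nucleotide exchange factor, and Efcab11 (0.982), with differences of -0.23, -0.59 and -0.71. For Naaa they were Slc25a1 (r = 0.995), the mitochondrial citrate carrier, Dop1b (0.991) and Tom1 (0.986), an endosomal sorting protein, with differences of -0.56, -0.62 and -0.47. An r over 0.95 was reached by 95 genes for Amigo2, 102 for Atp8b4, 30 for Gramd3 and 111 for Naaa.

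**Figure D5:**
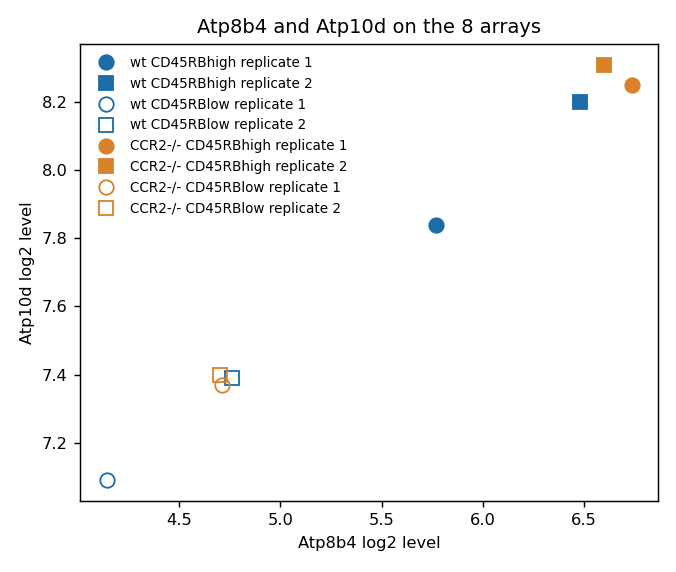
Log2 level of Atp10d (vertical axis) against that of Atp8b4 (horizontal axis) on the 8 arrays, coloured by genotype, filled for CD45RBhigh and open for CD45RBlow. The points rise together (r = 0.997), and wt replicate 1 is the lowest array of each subset for both genes, at 5.77 and 4.14 for Atp8b4 and 7.84 and 7.09 for Atp10d. Other genes, Chd2 and Pdlim5 among them, have the same lowest arrays.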

How the data were processed

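Expression was measured on 8 single-colour arrays hybridised with biotin-labelled cDNA from 200 ng of total RNA, per the labels' protocols. The authors deposited log2 levels of 41034 transcript clusters, which were used unchanged. The submitters' processing notes name RMA and Partek. RMA brings the distributions of the arrays close to each other, so a shift shared by most genes may not show. The platform annotation gave 23521 clusters exactly 1 symbol, 1814 several and 15699 none, and the brightest of the single-symbol clusters stood for each of 22180 genes. Genes at or over an array's 40th percentile on at least 2 arrays, 13508 in all, were fitted with limma 3.58.1 in R 4.3.3, with a mean per group, over all 8 arrays (4 residual degrees of freedom). P-values are two-sided, with Benjamini-Hochberg adjustment over those 13508 genes and calls at an adjusted p under 0.05. The number of arrays limits the precision.

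Samples were grouped by title. A number 2 stands in 4 titles, and the samples without one were taken as replicate 1. The difference between numbers correlated across genes for every pair of groups (6 correlations, 0.109 to 0.531, all over the limit of 0.1), which meets the rule for pairing. The genotype, interaction and subset values nevertheless come from the model without the number, and a second model (3 residual degrees of freedom) held it as a block. It gave the replicate effect and is printed elsewhere where it changes a call. The 4 genes, the gene lists and the tests were chosen with earlier results of these data known. Named beside the 4 genes are, from each list, up to 4 that passed in the averaged subset comparison or the 1 with the smallest p, and the 3 genes with the highest correlation with each gene, of which 1 is not reported here. The calculations were tested on simulated data. Alternatives changed the filter, the choice of cluster, the centring, the array weights and the variance model, added the block, or left out each array in turn. For subset, genotype and interaction values, the fits that left out 1 array did not hold the replicate number as a block. Protein sequences were not used here.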

Additional observations from a re-analysis of the deposited data

How the results depend on the processing

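Of 296 tested values of the 4 genes under alternatives (genotype, interaction, replicate number), 281 kept their direction and their side of the threshold, and 15 turned direction, all of them genotype or interaction values with 1 array left out. The 60 values of the subset difference, which has no test here, stayed below 0, the direction for which the genes were chosen. Leaving out 1 array in turn moved the genotype difference of Amigo2 from -0.27 to 0.47 in CD45RBhigh, from -0.27 to 0.49 in CD45RBlow and from -0.09 to 0.29 on average, and that of Atp8b4 in CD45RBlow from -0.05 to 0.57. It moved the interaction from -0.37 to 0.39 for Amigo2, from -0.65 to 0.07 for Atp8b4 and from -0.26 to 0.24 for Naaa. The lowest adjusted p of any of the 4 genes under an alternative was 0.501 for genotype or interaction and 0.179 for replicate number. The differences between subsets ranged, with 1 array left out, from -2.64 to -2.27 for Amigo2, -2.00 to -1.64 for Atp8b4, -1.10 to -1.01 for Gramd3 and -0.86 to -0.61 for Naaa. The count of genes called between subsets was 409, and 758 with the replicate block, which removes the difference between numbers from the spread; with 1 array left out it ran from 39 (without wt CD45RBlow replicate 1) to 547 (without CCR2-/- CD45RBhigh replicate 2). Genes called between replicate numbers were 9, and 1 to 4 with 1 array left out. Genotype and interaction calls were 0 under every alternative, with 573, 587, 967 and 288 genes at an unadjusted p under 0.05 with the replicate block (CD45RBhigh, CD45RBlow, averaged, interaction). The block changed no genotype or interaction call of the 4 genes.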

Other observations

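Of 18 usual genes of naive and quiescent T cells tested, 4 fell in CD45RBlow relative to CD45RBhigh cells and 0 rose, where 1.93% of all genes tested were called lower, and the median difference was 0.01. With the replicate number as a block the same 4 fell (limma, adjusted p from 0.00339 for Dapl1 to 0.0306 for Klf3). In that model 494 of the 13508 genes tested were called lower. The fits below that left out 1 array did not hold the block. Dapl1, a gene of naive T cells, fell by 1.53 (limma, adjusted p = 0.00651, and at most 0.045 with any 1 array left out). Actn1, a crosslinker of actin filaments, fell by 0.88 (adjusted p = 0.0106) and lost the call without CCR2-/- CD45RBlow replicate 1 (adjusted p = 0.051). Ccr7, the receptor that guides naive cells into lymph nodes, fell by 0.94 (adjusted p = 0.0303), with a call that held only without CCR2-/- CD45RBhigh replicate 1 or replicate 2 among the 8 arrays left out in turn (adjusted p up to 0.148). Klf3, a repressor of the KLF family, fell by 0.80 (adjusted p = 0.0382), with a call that held only without wt CD45RBhigh replicate 1 (adjusted p up to 0.176).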
